A study of Homo sapiens with 6 samples.

Results

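Tubulin is the building block of microtubules, and human cells make it from families of closely related genes called isotypes. The 10 isotype genes described here were chosen by symbol: TUBA1A, TUBA1B, TUBA1C and TUBA4A of the alpha family, and TUBB, TUBB2A, TUBB2B, TUBB3, TUBB4B and TUBB6 of the beta family. They are 10 of the 63140 genes in the deposited table. The libraries came from HEK293 cells, an established human embryonic kidney line, grown to confluence. The DMSO group (3 libraries) received the solvent dimethyl sulfoxide, and the GSK-A1 group (3 libraries) received 100 nM GSK-A1, both for 24 h. GSK-A1 blocks phosphatidylinositol 4-kinase alpha (PI4KA), the lipid kinase that supplies phosphatidylinositol 4-phosphate at the plasma membrane. The labels call the libraries biological replicates but name no culture date or passage, so the p-values measure the spread between these 6 samples.

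An alpha and a beta subunit pair into the heterodimer that polymerises. Newly made subunits are folded by the prefoldin and CCT chaperones and joined into dimers by the tubulin cofactors TBCA to TBCE. Cells also sense the pool of free dimers: when it is large, TTC5 binds the nascent tubulin chain at the ribosome, SCAPER links it to the CCR4-NOT deadenylase, and tubulin mRNA is degraded. The isotypes differ mostly at their carboxyl ends, which are the sites of polyglutamylation and detyrosination, and which many microtubule-binding proteins and motors read.

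The start of the reading frame carries the signal for this autoregulation, so the first 30 coding bases of each member are shown 5′ to 3′, from GENCODE release 29 (GRCh38), with the first 4 codons in capitals. In the alpha genes only the first 3 bases lie in the first coding exon, so the run joins a pair of exons, whereas the beta genes carry 57 coding bases there.
TUBA1A: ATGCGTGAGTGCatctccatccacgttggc
TUBA1B: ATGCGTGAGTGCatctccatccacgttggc
TUBA1C: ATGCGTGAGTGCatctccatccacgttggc
TUBA4A: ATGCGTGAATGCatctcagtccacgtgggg
TUBB: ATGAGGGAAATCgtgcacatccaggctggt
TUBB2A: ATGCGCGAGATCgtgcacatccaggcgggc
TUBB2B: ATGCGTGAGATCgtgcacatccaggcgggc
TUBB3: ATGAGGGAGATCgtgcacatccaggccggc
TUBB4B: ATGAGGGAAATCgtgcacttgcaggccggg
TUBB6: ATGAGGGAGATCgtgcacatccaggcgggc
TUBA1A, TUBA1B and TUBA1C were identical over the whole run. TUBB and TUBB4B shared their first 4 codons, as did TUBB3 and TUBB6. These are comparisons of bases only: codons that differ can encode the same amino acid, and the encoded amino acids were not compared.

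The last 60 coding bases are shown for the 5 better expressed beta members, with the stop codon in capitals. These bases encode the tail, in which many isotypes differ. TUBB2A and TUBB2B differed there only in the last base before the stop codon and in the stop codon. TUBA1A and TUBA1B, not shown, were identical over their last 60 coding bases.
TUBB: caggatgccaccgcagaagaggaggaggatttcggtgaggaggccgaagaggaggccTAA
TUBB2A: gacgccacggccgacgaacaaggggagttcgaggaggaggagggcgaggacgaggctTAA
TUBB2B: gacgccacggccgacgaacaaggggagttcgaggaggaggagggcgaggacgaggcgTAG
TUBB4B: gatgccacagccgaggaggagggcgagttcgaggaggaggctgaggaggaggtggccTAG
TUBB6: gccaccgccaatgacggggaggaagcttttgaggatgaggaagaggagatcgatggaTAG
Over whole coding sequences, TUBA1A and TUBA1B were 97.2% identical and TUBB2A and TUBB2B 98.1%. The 21 pairs within a family ranged from 81.2% to 98.1% identity (median 86.2%), and the 24 pairs between families from 54.6% to 56.7%.

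All 10 members passed the filter on low counts. Library totals ranged from 33040178 to 47777233 counts, and the members together took 0.518% to 0.548% of them. GSK-A1 replicate 2 stood somewhat apart: across 16754 genes its log2 level correlated at r = 0.995 and 0.994 with GSK-A1 replicates 1 and 3, which correlated with each other at 0.997, as did the DMSO pairs. Leaving it out changed the call of 1 member, TUBB4B, as given with that gene, while 28.1% of all genes tested were called in that fit. The log2 fold changes of the 5 called members were then 0.29 for TUBA1A, -0.10 for TUBB, 0.28 for TUBB2A, 0.21 for TUBB2B and 0.25 for TUBB6. Levels are given as CPM, the read count of a gene scaled to a common library total with TMM factors. HEK293 markers were present: VIM stood at 1085 CPM in DMSO and NEFL at 715 CPM, and KRT8, KRT18, LHX1 and PAX2 were also measured. Of the 6 of these markers that passed the count filter, edgeR called VIM (0.17, adjusted p = 0.00423) and KRT8 (0.11, adjusted p = 0.0373) higher, and PAX2 lower, from 2.71 to 2.00 CPM (-0.43, adjusted p = 0.0177), with log2 fold changes given first. NEFM, with 2 to 13 counts, was nearly absent. The summed level of these 7 markers was 2037 to 2110 CPM in DMSO and 2184 to 2375 CPM in GSK-A1, and its part in the tubulin result was not tested. Of markers of other cells, the 5 for leukocytes summed to at most 1.33 CPM in a library, the 4 for endothelium to at most 0.396 and the 4 for hepatocytes to at most 0.330, with TTR at 0 counts throughout. The 4 for fibroblasts summed to 5.04 to 7.70 CPM, nearly all of it COL1A1 with COL1A2 at 0, and the 5 for neurons to 18.7 to 22.3 CPM, mainly SYT1.

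With GSK-A1, 4 of the 10 members rose, 1 fell and 5 were not called by edgeR at an adjusted p under 0.05. TUBA1A, TUBB2A, TUBB2B and TUBB6 were the 4 that rose, by 16.2% to 23.3%. TUBB, the most abundant member, fell by 7.13%. Over all 16754 genes tested, 22.9% were called, 12.0% as higher and 10.9% as lower. The groups did not overlap for 6 members, against 40.5% of all genes. The median log2 fold change was 0.14 over the members and -0.01 over all genes tested. In bulk RNA, a change in RNA per cell and a change in the number of cells that make it cannot be told apart.

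**Figure D1:**
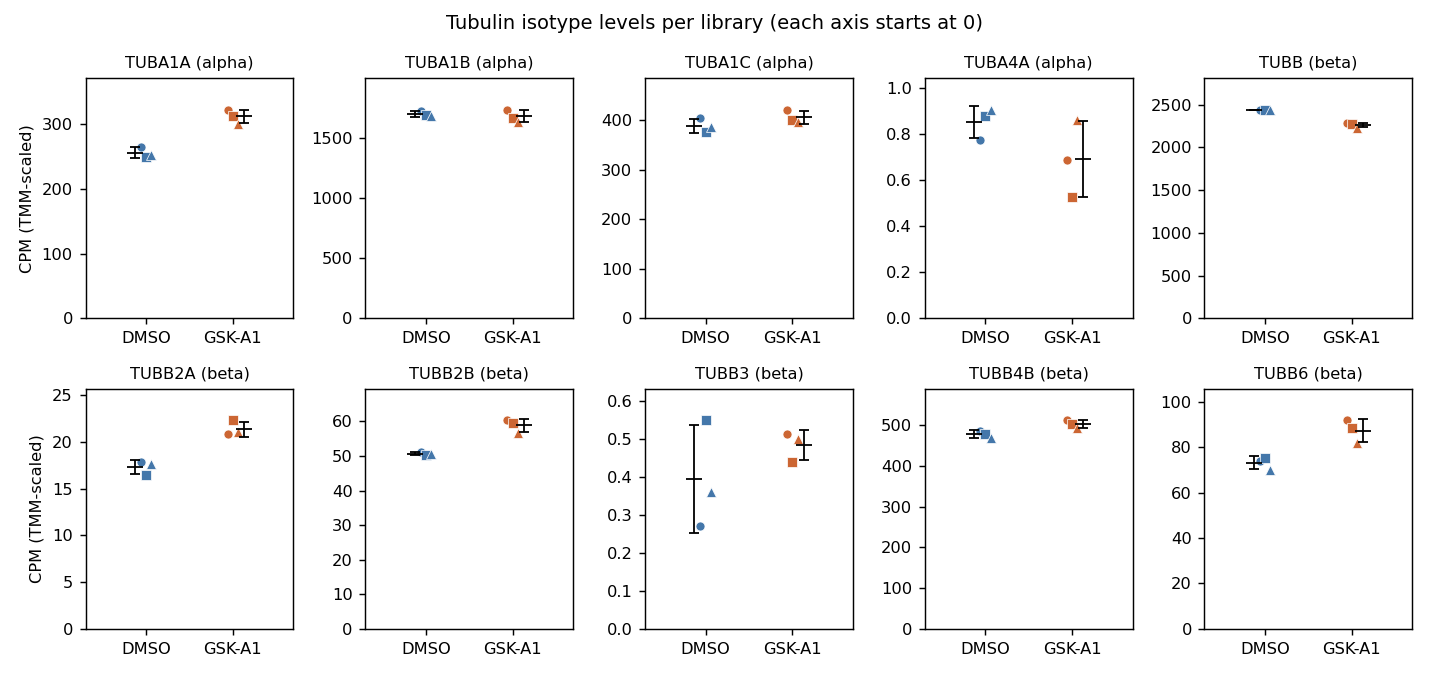
Level of each tubulin isotype (CPM) in the 3 DMSO and 3 GSK-A1 libraries, with circles, squares and triangles for replicates 1, 2 and 3 and black bars for mean and SD (n = 3). The groups are separate for TUBA1A, TUBB, TUBB2A, TUBB2B, TUBB4B and TUBB6 and overlap for TUBA1B, TUBA1C, TUBA4A and TUBB3.

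Of the 4 alpha genes, TUBA1A alone was called, and the levels of TUBA1B, TUBA1C and TUBA4A overlapped between the groups. TUBA1A (ENSG00000167552, chr12:49184796-49189324 on GRCh38, minus strand) is the alpha isotype best known from neurons and from brain malformations in people with mutations. Levels are listed in the order of replicates 1, 2 and 3. TUBA1A stood at 265, 249 and 253 CPM in DMSO and at 322, 313 and 301 CPM in GSK-A1. All GSK-A1 libraries lay above all DMSO libraries. Its mean level rose from 256 ± 8 CPM to 312 ± 11 CPM (SD, n = 3). The change was 0.29 ± 0.04 on the log2 scale (SE; edgeR adjusted p = 6.97e-05). TUBA1A shares 32.6% of its 50-base stretches with TUBA1B and 24.5% with TUBA1C, so the counts of these genes may not be fully separate.

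TUBA1B (ENSG00000123416, chr12:49127782-49131397, minus strand), a housekeeping alpha isotype, is the most highly expressed alpha gene here. It stood at 1727, 1691 and 1679 CPM in DMSO and at 1735, 1670 and 1635 CPM in GSK-A1. The groups overlapped, and the log2 fold change was -0.02 ± 0.03 (SE; 95% interval -0.08 to 0.05; edgeR adjusted p = 0.745). That sign turned to 0.02 with the GC trend removed and to 0.0062 without GSK-A1 replicate 3.

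TUBA1C (ENSG00000167553, chr12:49188736-49274603, plus strand) is another widely expressed alpha isotype. Its levels of 405, 377 and 386 CPM in DMSO and 422, 401 and 396 CPM in GSK-A1 overlapped. The log2 fold change was 0.06 ± 0.04 (SE; 95% interval -0.02 to 0.14; edgeR adjusted p = 0.246). TUBA1C and TUBA1A lie on opposite strands and share 10.6% and 14.3% of their exonic length, and the strand setting of the counting was not given in the sources used here.

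TUBA4A (ENSG00000127824, chr2:219249711-219278170, minus strand) was close to the lower limit of measurement at 18 to 40 counts a library. It stood at 0.77, 0.88 and 0.91 CPM in DMSO and at 0.69, 0.53 and 0.86 CPM in GSK-A1. The groups overlapped and the interval was wide, with a log2 fold change of -0.29 ± 0.22 (SE; 95% interval -0.75 to 0.18; edgeR adjusted p = 0.375). Single libraries weighed on it: it was -0.14 without GSK-A1 replicate 2 and -0.45 when GSK-A1 replicate 3 was left out.

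Among the beta members, the main gene was lower and 3 minor genes were higher. TUBB4A, a beta gene outside the members, fell (log2 fold change -0.42, edgeR adjusted p = 9.49e-05). TUBB (ENSG00000196230, chr6:30720201-30725426, plus strand) is the class I isotype found in nearly all cells. Its levels were 2436, 2443 and 2436 CPM in DMSO and 2288, 2272 and 2233 CPM in GSK-A1. All GSK-A1 libraries lay below all DMSO libraries, which were close together. The mean fell from 2438 ± 4 to 2264 ± 28 CPM (SD, n = 3), a change of -0.11 ± 0.03 on the log2 scale (SE; edgeR adjusted p = 0.0107). The call was lost without DMSO replicate 3 (-0.11, edgeR adjusted p = 0.0616) and without GSK-A1 replicate 3 (-0.09, adjusted p = 0.0615).

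TUBB4B (ENSG00000188229, chr9:137241213-137243707, plus strand) is the class IVb isotype, widely expressed and abundant in ciliated cells. Its levels were 487, 479 and 468 CPM in DMSO and 512, 502 and 492 CPM in GSK-A1. The groups did not overlap, yet the log2 fold change of 0.07 ± 0.03 (SE) missed the threshold (edgeR adjusted p = 0.127). TUBB4B passed it once the GC trend was removed (0.13, edgeR adjusted p = 0.00733) and without GSK-A1 replicate 2 (0.08, adjusted p = 0.0329).

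TUBB6 (ENSG00000176014, chr18:12307669-12344320, plus strand) encodes the class V isotype, which makes microtubules less stable when overexpressed in cultured cells. It stood at 73.9, 75.4 and 69.9 CPM in DMSO and at 91.7, 88.2 and 81.7 CPM in GSK-A1. The groups were separate, with GSK-A1 replicate 3 the lowest of its group. The change was 0.26 ± 0.05 on the log2 scale (SE; edgeR adjusted p = 0.00125). Of its exonic length, 20.3% overlaps AFG3L2 on the opposite strand, a gene with a mean of 3683 counts a library and a change of -0.01 (edgeR adjusted p = 0.945). Whether reads of the 2 genes were kept apart depends on the strand setting, which was not given.

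TUBB2A (ENSG00000137267, chr6:3153669-3157526, minus strand) and TUBB2B (ENSG00000137285, chr6:3224261-3231730, minus strand) are neighbouring class II genes best known from brain. TUBB2A stood at 17.9, 16.5 and 17.6 CPM in DMSO and at 20.8, 22.3 and 21.0 CPM in GSK-A1, a change of 0.30 ± 0.06 on the log2 scale (SE; edgeR adjusted p = 0.00162). TUBB2B stood at 51.2, 50.4 and 50.5 CPM in DMSO and at 60.3, 59.6 and 56.8 CPM in GSK-A1, a change of 0.22 ± 0.04 on the log2 scale (SE; edgeR adjusted p = 0.00185). The groups were separate for both genes. Of the 50-base stretches of the longest TUBB2A transcript, 60.3% also occurred in TUBB2B, and 47.3% of those of TUBB2B occurred in TUBB2A. How reads with several matches were counted was not given in the sources used here, so the split between the pair is uncertain. The ratio of TUBB2A to TUBB2B per kilobase was 0.433 ± 0.016 in DMSO and 0.460 ± 0.020 in GSK-A1, with overlapping groups.

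The start regions of this pair are shown because both genes rose and their coding sequences are so alike. Each window spans the RefSeq gene start (GRCh38.p14), 5′ to 3′ on the gene's strand: chr6:3157495-3157794 for TUBB2A and chr6:3227604-3227903 for TUBB2B, both minus. Capitals mark the CCAAT box (CCAAT, or ATTGG on the other strand) and the TATA box (TATAAA, or TTTATA on the other strand).
TUBB2A: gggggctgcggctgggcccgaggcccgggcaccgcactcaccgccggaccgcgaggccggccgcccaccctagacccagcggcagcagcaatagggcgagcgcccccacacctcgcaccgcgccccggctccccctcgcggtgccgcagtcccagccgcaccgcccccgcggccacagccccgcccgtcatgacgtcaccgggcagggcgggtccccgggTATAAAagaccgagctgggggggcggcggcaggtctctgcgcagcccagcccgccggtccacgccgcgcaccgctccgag
TUBB2B: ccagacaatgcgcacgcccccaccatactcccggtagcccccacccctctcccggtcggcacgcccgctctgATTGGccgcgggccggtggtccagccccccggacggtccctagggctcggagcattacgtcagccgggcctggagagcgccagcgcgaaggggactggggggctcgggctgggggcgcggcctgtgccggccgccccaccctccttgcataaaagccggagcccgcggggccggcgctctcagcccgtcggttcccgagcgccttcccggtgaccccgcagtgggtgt
The TUBB2A window held TATAAA and no CCAAT, and the TUBB2B window the reverse. The 10 members matched 15 windows, since a gene can have several. CCAAT on either strand occurred in 9 of these 15, against 34.6% of all 35116 windows of this length, and TATAAA in 1 of 15, against 11.5%. Windows can overlap: the TUBA1C windows chr12:49227676-49227975 and chr12:49227769-49228068 hold the same CCAAT, which was thus counted in both. The GC box GGGCGG (or CCGCCC), whose first bases can be shared with ATTGG, occurred in 9 of 15, against 45.0%. The members with CCAAT in some window were TUBA1A, TUBA1C, TUBB, TUBB2B, TUBB3, TUBB4B and TUBB6. These include members that rose, members that were not called and TUBB, which fell. The part of CCAAT in the changes was not tested.

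TUBB3 (ENSG00000258947, chr16:89921392-89938761, plus strand), the class III isotype used as a neuron marker, was the lowest member at 12 to 25 counts a library. It stood at 0.27, 0.55 and 0.36 CPM in DMSO and at 0.51, 0.44 and 0.50 CPM in GSK-A1. The groups overlapped, and the log2 fold change of 0.30 ± 0.30 (SE; 95% interval -0.32 to 0.93; edgeR adjusted p = 0.496) left either direction possible. It was 0.05 without DMSO replicate 1, the lowest library, and 0.66 when DMSO replicate 2, the highest, was left out. In GENCODE 29, 79.6% of its 50-base stretches also belong to the read-through gene AC092143.1 on the same strand, which had 0 counts in these libraries. How reads falling on both genes were counted was not given, so these 0 counts do not show that TUBB3 was counted in full. Its level, rank and share may therefore be too low.

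**Figure D2:**
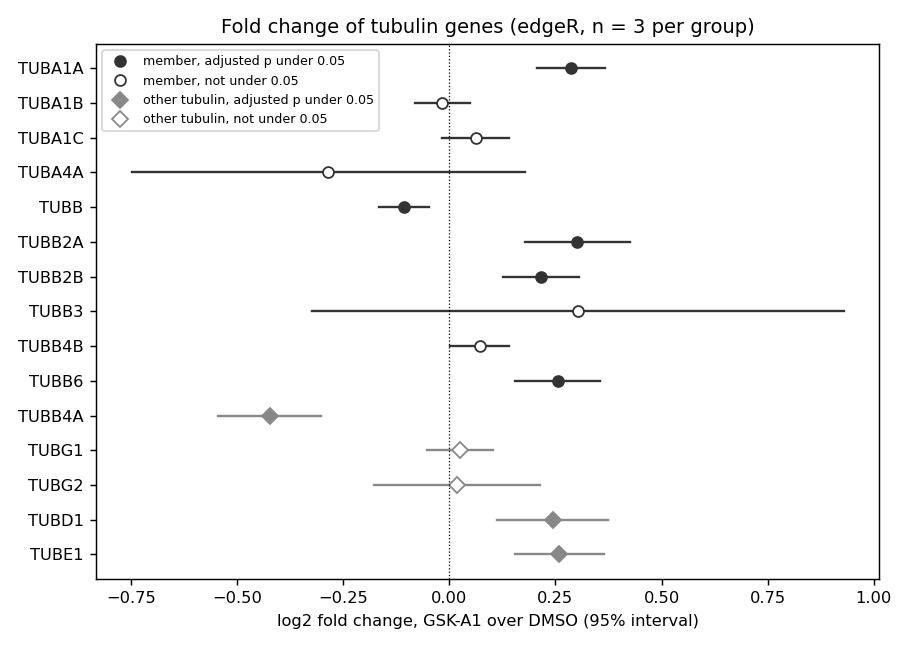
Log2 fold change of GSK-A1 over DMSO (horizontal axis) with 95% intervals for the 10 members (circles) and 5 other tubulins that passed the count filter (diamonds), from edgeR with 3 libraries per group; filled symbols have an adjusted p under 0.05. TUBA1A, TUBB2A, TUBB2B and TUBB6 lie between 0.22 and 0.30, TUBB at -0.11 and TUBB4A at -0.42.

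Levels can be set side by side only per transcript length. On the scale of CPM per kilobase of the longest transcript, the DMSO means ran from TUBB (840) through TUBA1B (531), TUBB4B (235), TUBA1A (134), TUBA1C (130), TUBB6 (33.8), TUBB2B (25.1), TUBB2A (10.9) and TUBA4A (0.34) to TUBB3 (0.20). The order of the means was the same in GSK-A1. TUBA1A and TUBA1C overlapped in DMSO but not in GSK-A1, where they reached 163 and 135 CPM per kilobase. TUBA4A and TUBB3 overlapped in GSK-A1, and every other pair of neighbours was separate in both groups. The order depends on the length used. With merged exon lengths, tried after seeing the data, TUBB2B (23.1 CPM per kilobase in DMSO) stood above TUBB6 (17.7), and TUBA1C stood above TUBA1A in DMSO (84.1 and 74.8) but below it in GSK-A1 (87.8 and 91.2, overlapping), so 8 of the 10 members kept their rank between the groups.

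Isotype shares, the level of a member as a percentage of its family's summed level per kilobase, do not depend on the library factor. The groups did not overlap for 7 of the 10 shares, of which 5 were higher and 2 lower with GSK-A1. Each of the 7 had an exact two-sided permutation p of 0.1, the smallest that 3 against 3 libraries allow, so no share could reach 0.05. Within a family shares sum to 100%, and they are therefore not independent. TUBB4A is not a member and does not enter the beta total. Without GSK-A1 replicate 2 the differences kept their signs, at 2.90 percentage points for TUBA1A, -3.07 for TUBA1B, -3.08 for TUBB and 1.75 for TUBB4B.

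In the alpha family TUBA1A took 17.0%, 16.6% and 16.8% in DMSO and 19.8%, 19.9% and 19.6% in GSK-A1. TUBA1B took 66.4%, 67.4% and 66.8% in DMSO and 63.7%, 63.7% and 63.9% in GSK-A1. The difference was 2.97 percentage points for TUBA1A and -3.09 for TUBA1B, larger than the SD of either group, which was at most 0.50. The TUBA1C share was 16.3% ± 0.3 in DMSO and 16.4% ± 0.1 in GSK-A1 (exact permutation p = 0.7, n = 3 per group), and that of TUBA4A was at most 0.046% in a library. The TUBA1C difference of 0.123 points turned to -0.037 without DMSO replicate 2 and was 0.251 when DMSO replicate 1 was left out. The ratio of TUBA1A to TUBA1B per kilobase was 0.251 ± 0.005 in DMSO and 0.310 ± 0.003 in GSK-A1.

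In the beta family TUBB took 73.0%, 73.4% and 73.8% in DMSO and 70.0%, 70.3% and 70.5% in GSK-A1. TUBB4B took 20.8%, 20.5% and 20.2% in DMSO and 22.3%, 22.2% and 22.2% in GSK-A1. TUBB thus took less and TUBB4B more of the family in each GSK-A1 library than in any DMSO library. TUBB6 went from 2.95% ± 0.10 to 3.63% ± 0.16, TUBB2B from 2.19% ± 0.02 to 2.63% ± 0.04 and TUBB2A from 0.949% ± 0.042 to 1.21% ± 0.05 (SD, n = 3). The TUBB3 share was 0.017% in DMSO and 0.022% in GSK-A1 and overlapped (exact permutation p = 0.4, n = 3 per group). TUBB2A, TUBB2B, TUBB3 and TUBB6 together made up 6.11% ± 0.07 of the beta level in DMSO and 7.49% ± 0.19 in GSK-A1.

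**Figure D3:**
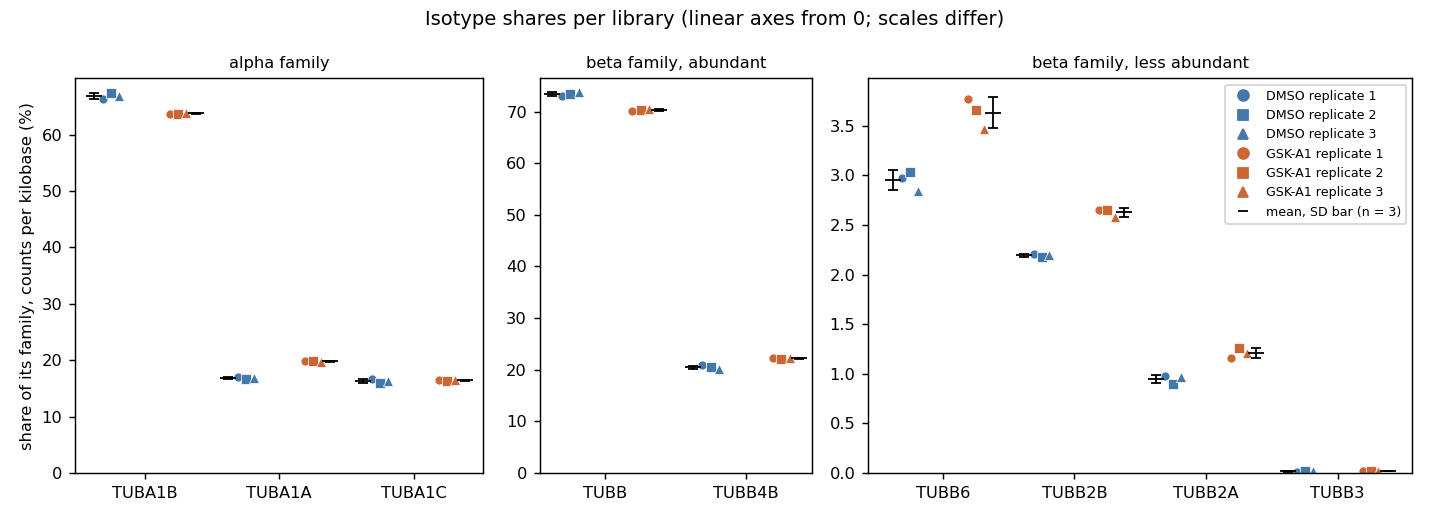
Share of each isotype in the summed level of its family, in percent of counts per kilobase, by library; symbols are replicates and black bars mean and SD (n = 3). The TUBA1A share lies at 16.6% to 17.0% in DMSO and 19.6% to 19.9% in GSK-A1, and the TUBB share at 73.0% to 73.8% and 70.0% to 70.5%; TUBA4A, under 0.05%, is not drawn.

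Summed alpha levels were 2398, 2317 and 2320 CPM in DMSO and 2480, 2384 and 2333 CPM in GSK-A1 and overlapped; the difference of 53.9 CPM turned to -13.3 CPM under upper-quartile factors. Summed beta levels were 3066, 3064 and 3042 CPM in DMSO and 2972, 2945 and 2886 CPM in GSK-A1, a change of -4.02% with no overlap. The ratio of alpha to beta per kilobase was 0.708, 0.684 and 0.691 in DMSO and 0.757, 0.735 and 0.734 in GSK-A1, also with no overlap. These sums carry no test. When 1 library was left out, the alpha difference ranged from 13.6 CPM (without GSK-A1 replicate 1) to 86.9 CPM (without GSK-A1 replicate 3), and the beta difference from -142 to -98.6 CPM with the same libraries left out.

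Of 12 other tubulin genes, 5 passed the count filter, and 2 of these rose and 1 fell (60% called, against 22.9% of all genes). TUBB4A (ENSG00000104833), the class IVa beta isotype of brain, stood at 24.1, 27.1 and 25.0 CPM in DMSO and at 19.0, 18.6 and 19.1 CPM in GSK-A1. It fell from 25.4 ± 1.5 to 18.9 ± 0.3 CPM, a change of -0.42 ± 0.06 on the log2 scale (SE; edgeR adjusted p = 9.49e-05), in the direction opposite to TUBB2A, TUBB2B and TUBB6. Single values in brackets from here on are log2 fold changes, with SE after the sign ±. Delta tubulin TUBD1 (0.24 ± 0.06, edgeR adjusted p = 0.00973) and epsilon tubulin TUBE1 (0.26 ± 0.05, adjusted p = 0.00155), both of centrioles, rose. The TUBD1 call was lost without DMSO replicate 3 (edgeR adjusted p = 0.0622). Gamma tubulin, which nucleates microtubules, was not called as TUBG1 (0.03 ± 0.04, edgeR adjusted p = 0.660) or TUBG2 (0.02 ± 0.09, adjusted p = 0.908), and both signs turned under some of the alternatives. Leaving out GSK-A1 replicate 2 brought TUBG2 past the threshold (edgeR adjusted p = 0.0323). TUBA8 (5 to 15 counts) and TUBA3C, TUBA3D, TUBA3E, TUBAL3, TUBB1 and TUBB8 (at most 4 counts a library) were not tested.

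In the folding pathway, 6 of 25 genes rose and 1 fell, 28.0% called against 22.9% of all genes. CCT4, a subunit of the CCT ring, rose from 579 to 660 CPM (0.19 ± 0.04 on the log2 scale, edgeR adjusted p = 0.00149). The prefoldin subunits PFDN2 (0.18, edgeR adjusted p = 0.0157) and PFDN1 (0.15, adjusted p = 0.0165) rose, and the cofactor TBCD fell (-0.15, adjusted p = 0.00794). The median over the list was 0.04. All lists here were chosen by function, with earlier results of these data known, and the count in each is a description. The count dropped to 2, 2 and 3 without DMSO replicates 1, 2 and 3, fits in which 12.9%, 13.2% and 12.7% of all genes were called. It was 4 under upper-quartile factors, with 24.0% of all genes called, whereas CCT4 kept its call in all 15 alternatives. PFDN1 was not called without DMSO replicate 1 or 2, PFDN2 without DMSO replicate 2 or 3 or GSK-A1 replicate 1, both also under upper-quartile factors, and TBCD without DMSO replicate 1 (highest edgeR adjusted p = 0.102, 0.106 and 0.0557).

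Of 12 genes for the decay of tubulin mRNA, 4 rose and 1 fell (41.7% called, against 22.9% of all genes). TTC5, the reader of the nascent tubulin chain, had a change of -0.04 ± 0.06 on the log2 scale (SE; edgeR adjusted p = 0.708), a sign that turned in 1 alternative. SCAPER, its link to the deadenylase, rose by 0.18 (edgeR adjusted p = 0.0194), a call lost under upper-quartile factors and without DMSO replicate 1 or 3 (highest adjusted p = 0.108). Of the CCR4-NOT subunits, the deadenylases CNOT8 (0.24, edgeR adjusted p = 8.31e-04) and CNOT6L (0.27, adjusted p = 0.00133) rose, and CNOT3 fell (-0.18, adjusted p = 0.0127). The count was 2 without DMSO replicate 1, and 3 without DMSO replicate 3, without GSK-A1 replicate 1 (15.9% of all genes called) and under upper-quartile factors. CNOT3 lost its call without DMSO replicate 1 or GSK-A1 replicate 1 (highest edgeR adjusted p = 0.0956), and CNOT8 and CNOT6L kept theirs in all 15 alternatives.

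Of 22 genes for the modification of tubulin, 19 were tested, and 2 rose and 3 fell (26.3% called, near the 22.9% of all genes). TTLL7, which adds glutamate chains to beta tails, rose from 28.1 to 36.2 CPM (0.36 ± 0.05, edgeR adjusted p = 2.35e-04). TTL, which restores the terminal tyrosine of alpha tubulin, rose (0.18, edgeR adjusted p = 0.00273). The deglutamylase AGBL5 fell from 82.6 to 68.7 CPM (-0.27 ± 0.04, edgeR adjusted p = 2.78e-04), as did VASH2, which removes the tyrosine (-0.29, adjusted p = 0.00886), and TTLL12 (-0.13, adjusted p = 0.0134). The acetyltransferase ATAT1 (-0.15, edgeR adjusted p = 0.158) and the deacetylase HDAC6 (-0.14, adjusted p = 0.0522) were not called, and HDAC6 passed the threshold in 5 of 15 alternatives, among them without GSK-A1 replicate 3. VASH2 lost its call without DMSO replicate 2 or GSK-A1 replicate 1, and TTLL12 without DMSO replicate 1 or 3 and with the GC trend removed (highest edgeR adjusted p = 0.0718 and 0.159). TTLL7, TTL and AGBL5 kept theirs in all 15.

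In the gamma-tubulin ring complex and its partners, 2 of 14 genes rose and 1 fell (21.4% called, near the 22.9% of all genes). The ring subunit TUBGCP4 rose (0.18, edgeR adjusted p = 0.00343), as did its recruiter NEDD1 (0.16, adjusted p = 0.0437), and MZT2B fell (-0.13, adjusted p = 0.0245). Only TUBGCP4 kept its call in all 15 alternatives. The count was 1 with the GC trend removed and when GSK-A1 replicate 1 or any DMSO library was left out. Of all genes, 25.6% were called with the GC trend removed and 12.7% to 15.9% in those leave-out fits.

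Microtubule-associated proteins had 33 of 35 genes tested, of which 12 rose and 3 fell (45.5% called, against 22.9% of all genes). MAP1B, a neuronal lattice binder, rose from 184 to 238 CPM (0.37 ± 0.04, edgeR adjusted p = 8.75e-06), EML2 from 42.3 to 54.9 CPM (0.38 ± 0.05, adjusted p = 6.55e-05) and TACC1 from 89.6 to 105 CPM (0.22 ± 0.04, adjusted p = 5.47e-04). The minus-end protein CAMSAP3 (-0.18, edgeR adjusted p = 0.0118), MAP1A (-0.48, adjusted p = 0.0493) and DCLK1 (-0.20, adjusted p = 0.0496) fell. Of 15 alternatives, CAMSAP3 lost its call in 3, MAP1A in 8 and DCLK1 in 9. The count was 7, 9 and 8 without DMSO replicates 1, 2 and 3, fits in which 12.9%, 13.2% and 12.7% of all genes were called.

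Of 16 destabilisers, 14 were tested, and 3 rose and 1 fell (28.6% called, against 22.9% of all genes). Those that rose included KATNAL1, a microtubule-severing enzyme (0.31, edgeR adjusted p = 9.10e-04), and the depolymerising kinesin KIF2A (0.20, adjusted p = 0.00446). STMN3, a stathmin that sequesters dimers, fell from 32.0 to 24.7 CPM (-0.38 ± 0.06, edgeR adjusted p = 2.02e-04). STMN1, the abundant stathmin at 479 and 513 CPM, was not called (0.10 ± 0.04, edgeR adjusted p = 0.106) and passed in 2 of 15 alternatives, with no count filter and when GSK-A1 replicate 3 was left out.

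Without GSK-A1 replicate 2, where 28.1% of all 17399 genes tested were called against 22.9% with all libraries, the counts called were 4 for other tubulins, 7 for folding, 5 for mRNA decay, 7 for modification, 4 for the ring complex, 17 for associated proteins and 5 for destabilisers.

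**Figure D4:**
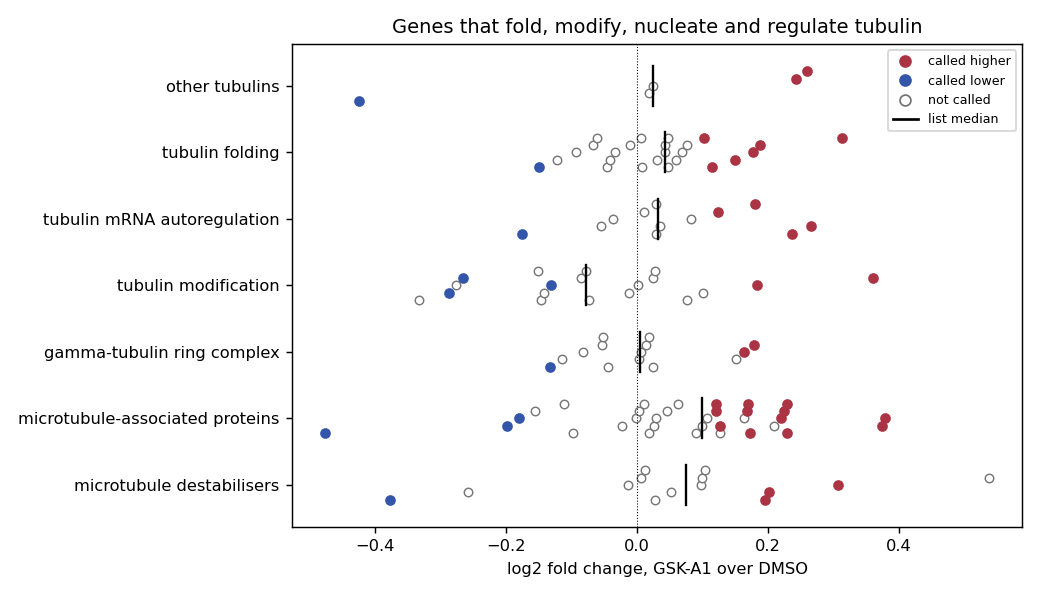
Log2 fold change of GSK-A1 over DMSO (horizontal axis) for each tested gene of 7 lists around tubulin, with red for called higher, blue for called lower, open for not called, and a black line at the list median; vertical scatter within a list only separates points. The medians lie between -0.08 for modification and 0.10 for microtubule-associated proteins.

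Among 9910 genes outside the tubulin family with at least 10 CPM, those whose log2 CPM over the 6 libraries was most like that of the summed members were GINS2 (r = 0.966), RPP38 (0.960), PPIB (0.951), SNRPC (0.943) and TGS1 (0.940). None of these 5 was called by edgeR (adjusted p from 0.403 to 0.737). They were chosen for following a sum whose mean was 5402 CPM in DMSO and 5333 CPM in GSK-A1, a change of -1.28%. TUBB and TUBA1B, at 2438 and 1699 CPM in DMSO, dominate that sum, so these genes need not follow the members that rose. The points share libraries and depth, and these r values are a description over 6 libraries only.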

How the data were processed

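Per the submitters' processing notes, reads were handled with cutadapt 5.1, STAR 2.7.11b and featureCounts (Subread 2.1.1) on GRCh38.p13. The notes also name DESeq2 1.38.0. The deposited values are raw counts per gene, 1 column per library. The annotation release, strand setting, read length and treatment of reads with several matches were not given in the sources used here. Per the labels' protocols, total RNA was made into stranded libraries, and all 6 carry the same batch label.

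Genes were filtered with filterByExpr (smallest count 10, smallest total 15), scaled by TMM factors of 0.993 to 1.00 and tested with the quasi-likelihood F test of edgeR 4.0.16 in R 4.3.3. Benjamini-Hochberg adjustment ran over the 16754 genes left, and genes under 0.05 were called. The common biological coefficient of variation was 4.06%. Shares used exact permutation tests (SciPy 1.17.1). Replicate SDs carry the error, and the code was tested on simulated counts. Alternatives were RLE, upper-quartile and no factors, other filters, DESeq2 1.42.0, limma-voom (limma 3.58.1), a replicate block, removal of each library's GC trend (loess span 0.3), a stricter threshold, raw-count and merged-exon shares, and leaving out each library.

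The members and gene lists were chosen with earlier results of these data known. Named genes were all members, every tested other tubulin, up to 3 called genes per direction and list by smallest p-value, 7 regulators whatever their values, and the 5 genes most like the summed members. TBCE has 2 table entries, of which the larger was used. GENCODE 29 held 58072 of the 63140 identifiers. Protein sequences were not used here, and some sequences and 1 listed gene are not reported here.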

Additional observations from a re-analysis of the deposited data

How the results depend on the processing

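TUBA1A, TUBB2A, TUBB2B and TUBB6 kept their direction and call in all 15 alternatives to the test, with log2 fold changes of 0.25 to 0.32, 0.26 to 0.36, 0.18 to 0.26 and 0.21 to 0.33 and a highest adjusted p of 0.0206 (TUBB2A without DMSO replicate 2). TUBA1C was called in none of the 15. TUBA4A and TUBB3 were called in none of the 13 that gave them an adjusted p: DESeq2 gave none, and the filter at a mean of 1 CPM left them out. With the GC trend removed, TUBA1B was at 0.017 and TUBB4B at 0.13. Leaving out 1 library at a time gave -0.033 to 0.0062 for TUBA1B, 0.058 to 0.089 for TUBB4B and -0.11 to -0.093 for TUBB. Genes called numbered 2163 (without DMSO replicate 1) to 4890 (without GSK-A1 replicate 2) when 1 library was left out, and 1871 at an adjusted p under 0.01. Upper-quartile factors gave 33.3% of calls as higher against 52.3% with TMM, and put the group differences at -13.3 CPM for summed alpha and -208 CPM for summed beta tubulin. From raw counts the share differences were 2.10 points for TUBA1A, -2.44 for TUBA1B, 0.345 for TUBA1C, -2.58 for TUBB, 0.162 for TUBB2A, 0.348 for TUBB2B and 1.48 for TUBB4B, and with merged exon lengths 2.27 for TUBA1A, -2.53 for TUBA1B and 0.409 for TUBB6, all in the same direction. The causes of these shifts were not tested, apart from the length scale of the shares. Deviations of same-numbered libraries from their group means correlated weakly (r = 0.011, 0.019 and 0.032), and those of differently numbered libraries at -0.033 to 0.012. At most a weak pairing by replicate number was seen, and the check cannot show that there is none. With the replicate block, 4127 genes were called and no member changed its call. At 12 to 40 counts, TUBA4A and TUBB3 limit what can be seen to large changes.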

Other observations

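The deposited table lists 47 further rows with symbols starting TUBA or TUBB. Of these, 37 are pseudogenes by symbol, 27 of them with 0 counts in every library, and together they held 124 counts against 1308612 for the members. TUBB4A and TUBB8B were the 2 of the 47 rows that passed the count filter.

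TUBB8B (ENSG00000173213) was singled out after its values were seen. GENCODE 29 gives this identifier the pseudogene-type symbol TUBB8P12 but classes it as protein coding, and its 160 counts are not among the 124 above. It had 44, 37 and 31 counts in DMSO replicates 1 to 3 and 15, 14 and 19 counts in GSK-A1 replicates 1 to 3. Its level was 0.889 ± 0.066 CPM in DMSO and 0.420 ± 0.103 CPM in GSK-A1 (SD, n = 3). Its log2 fold change was -1.10 with an SE of 0.24 (edgeR adjusted p = 0.00371). In each GSK-A1 library it was below every DMSO library.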
